A study of Mus musculus with 6 samples.

Results

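The Hippo pathway effectors and targets described here are 10 mouse genes, all found among the 54532 genes of the deposited table of FPKM (fragments per kilobase of transcript, scaled to library size). They were chosen by symbol: the coactivators Yap1 and Wwtr1, the DNA-binding partners Tead1, Tead2 and Tead3, the targets Ccn1 (older name Cyr61), Ccn2 (older name Ctgf) and Ankrd1, and the pathway components and targets Amotl2 and Lats2. RNA was sequenced from whole tumors grown from a mouse melanoma cell line. The cells carried either an active Gli2 mutation (labelled Gli2CA, 3 tumors) or a non-targeted control (labelled NTC, 3 tumors). Gli2 is a transcription factor of the Hedgehog pathway. Both kinds of cells were grown with 10% FBS and 1 ug/mL of puromycin. The mix implanted into C57Bl/6 mice held 1000000 cells in each 100 uL of matrigel and PBS, 1:1, and tumors of both groups were taken at day 28. All tumors therefore share the genotype of that line and a host with its own stroma, vessels and immune cells. In whole tumors, fewer cells of a type and less RNA per cell cannot be told apart.

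In the Hippo pathway a kinase cassette, MST (Stk3, Stk4) acting on LATS (Lats1, Lats2), phosphorylates the coactivators YAP and TAZ (the product of Wwtr1) and keeps them out of the nucleus. When the kinases are inactive, YAP and TAZ enter the nucleus, bind TEAD transcription factors and switch on target genes, among them Ccn1, Ccn2 and Ankrd1. In melanoma and in tumor fibroblasts the pair is known for its links to growth, invasion and matrix stiffness. Lats2 and Amotl2 are both targets and inhibitors of YAP, and so are part of a feedback loop.

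The letters that TEAD factors bind, CATTCC or on the other strand GGAATG, were sought in the 250 bases before each transcription start given by RefSeq (GRCm38.p6). Starts were found for 8 of the 10 genes, and Tead1 and Ccn2 had no entry. Of these 8 genes 6 held a match at 1 start or more, and of their 12 starts 8 did, while 12.6% of all 32851 mouse starts did. The windows of the 2 Wwtr1 starts overlap and hold the same match, which is counted for both. The share of 12.6% is over starts, and no share over genes was computed. Windows are shown only where they held a match, so those of Lats2, also a target, are not among them. The windows of 3 targets and of both coactivators are shown, with the matches in capitals, because coactivators and targets are set against each other in the results. They lie at chr3:145649986-145650235 (minus strand), chr19:36119845-36120094 (minus strand), chr9:102717554-102717803 (plus strand), chr9:8004597-8004846 (minus strand) and chr3:57575911-57576160 (minus strand, the first of 2 starts), and each reads 5′ to 3′ towards the start.
Ccn1: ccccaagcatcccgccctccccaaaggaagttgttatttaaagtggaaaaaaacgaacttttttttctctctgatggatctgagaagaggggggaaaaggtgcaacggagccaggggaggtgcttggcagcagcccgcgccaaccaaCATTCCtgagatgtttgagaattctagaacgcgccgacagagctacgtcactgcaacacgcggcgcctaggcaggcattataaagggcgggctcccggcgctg
Ankrd1: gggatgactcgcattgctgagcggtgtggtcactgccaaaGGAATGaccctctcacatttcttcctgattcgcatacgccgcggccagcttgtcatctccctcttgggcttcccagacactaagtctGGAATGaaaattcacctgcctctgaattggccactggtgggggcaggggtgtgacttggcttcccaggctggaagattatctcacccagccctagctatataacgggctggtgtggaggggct
Amotl2: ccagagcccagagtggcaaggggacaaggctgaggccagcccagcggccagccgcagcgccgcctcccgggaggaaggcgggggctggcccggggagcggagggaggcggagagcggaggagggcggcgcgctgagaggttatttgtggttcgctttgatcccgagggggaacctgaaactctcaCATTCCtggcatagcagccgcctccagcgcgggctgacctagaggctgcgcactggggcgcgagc
Yap1: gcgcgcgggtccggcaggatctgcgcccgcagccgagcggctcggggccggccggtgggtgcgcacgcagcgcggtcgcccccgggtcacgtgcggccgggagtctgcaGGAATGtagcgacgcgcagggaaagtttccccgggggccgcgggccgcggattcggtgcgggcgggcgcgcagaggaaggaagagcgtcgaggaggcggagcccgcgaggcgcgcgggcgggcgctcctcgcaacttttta
Wwtr1: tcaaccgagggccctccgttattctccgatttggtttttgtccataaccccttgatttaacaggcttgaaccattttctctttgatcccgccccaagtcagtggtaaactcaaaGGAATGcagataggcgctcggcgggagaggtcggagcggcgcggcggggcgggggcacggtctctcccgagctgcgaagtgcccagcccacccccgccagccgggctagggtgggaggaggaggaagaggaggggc
The first base of the match stood 103 bases before the start in Ccn1, 210 and 123 bases before it in Ankrd1, 65 in Amotl2, 141 in Yap1 and 136 in Wwtr1. Tead3 held matches before 2 of its 3 starts. Neither start of Lats2 nor the start of Tead2 had these letters in the window. A match describes the letters only.

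Totals of 16225412 to 22274077 fragments per tumor were computed back from the FPKM values. Fragments summed over genes came to 0.9938 to 0.9998 of these totals. The totals thus describe fragments assigned to genes and not the full size of the libraries. Gli2 itself was lower in all 3 tumors labelled Gli2CA, at 3.22, 5.82 and 1.61 FPKM, against 8.88, 11.1 and 7.96 FPKM in NTC tumors (log2 fold change -1.40, SE 0.38, adjusted p = 0.0853 in limma), and passed under 2 alternatives, sample weights (0.0211) and a replicate block (0.03). The label names an active Gli2 mutation, and these values are what was counted under mouse Gli2 in whole tumors. The sources used here do not say whether transcripts of the construct count towards Gli2, so directions are given for tumors by their label. Among markers of the melanocyte lineage, Sox10 stood at 51.5 to 97.1 FPKM in the tumors labelled Gli2CA and 83.7 to 177 FPKM in NTC tumors. Of the pigment cell markers, Tyrp1 was listed at 0 in all 6 tumors and Tyr, Dct and Mlana at 0.504 FPKM or less. Of all 15820 tested genes, 55 had an adjusted p under 0.05 by limma, with 42 of them (0.265%) higher and 13 (0.0822%) lower.

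Fold changes are estimates on the log2(FPKM + 0.5) scale from limma, a linear model per gene, with p adjusted over all tested genes and 0.05 as the threshold. None of the 10 genes passed this test, and their estimates pointed in both directions. In limma 0 of 10 reached an adjusted p of 0.05, where 0.348% of all tested genes did, and their adjusted p ran from 0.153 to 0.959. At an unadjusted p under 0.05 there was 1 of 10, Tead3, where 27.5% of all tested genes were. The groups did not overlap for 2 of 10, Ccn1 and Lats2, where 33.8% of all tested genes did not overlap. Estimates were positive for 4 genes, Wwtr1, Ccn1, Ccn2 and Ankrd1, and negative for 6 (52.6% of all tested genes were negative), with a median log2 fold change of -0.29 against -0.04 over all tested genes. Limma-voom on the fragments also gave 0 of 10, as did each of the other 16 alternatives, including 2 under which 10% or more of all genes were called. With 3 tumors per group, a change of the size of these estimates could be missed.

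**Figure D1:**
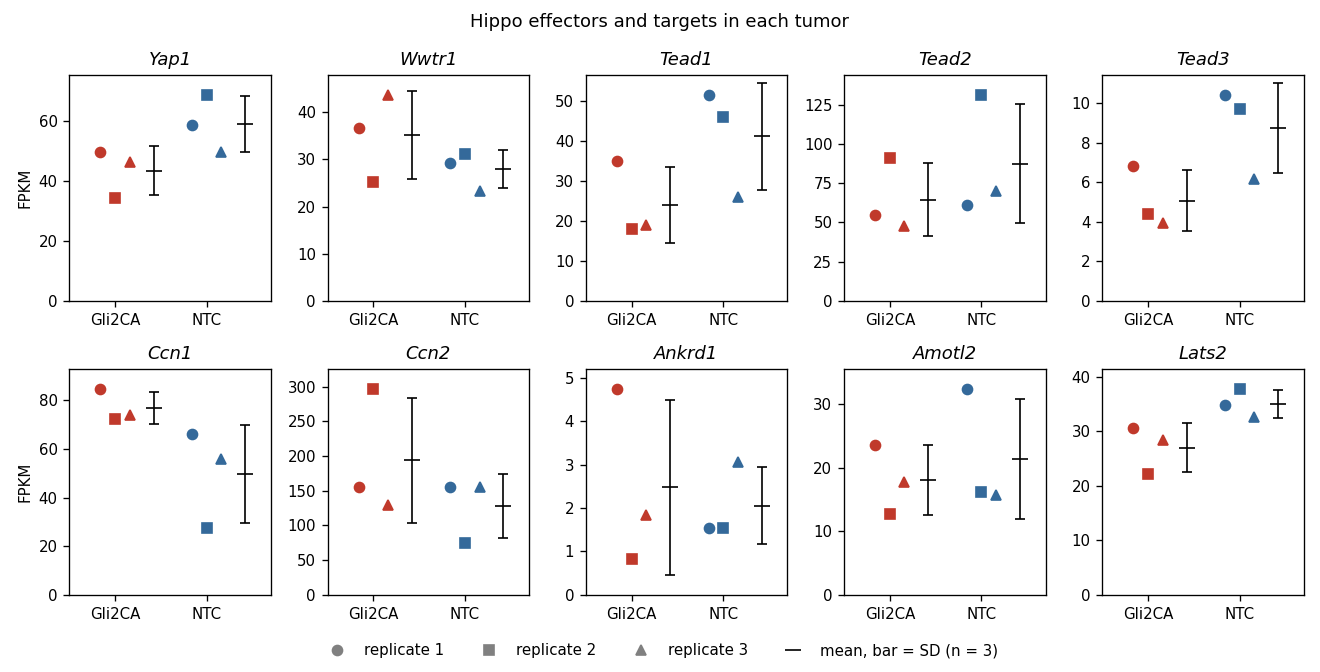
FPKM of the 10 genes in each of the 3 tumors labelled Gli2CA (red, left) and the 3 NTC tumors (blue, right), with marker shape for the replicate number and the mean and SD in black. Only Ccn1 and Lats2 have groups that do not overlap, with Ccn1 at 72.2 to 84.4 FPKM in the tumors labelled Gli2CA and 27.3 to 66.2 FPKM in NTC tumors.

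Yap1 and Wwtr1, the coactivators, had estimates of opposite sign. Yap1 (ENSMUSG00000053110, GENCODE M21 on GRCm38, chromosome 9, 7931999 to 8004596, minus strand) stood at 49.8, 34.2 and 46.3 FPKM in the tumors labelled Gli2CA and at 58.8, 68.6 and 49.7 FPKM in NTC tumors. The groups met at their edges, where Gli2CA replicate 1 (2009 fragments) lay just above NTC replicate 3 (1809 fragments). Yap1 had a log2 estimate of -0.44 (SE 0.24, adjusted p = 0.249 in limma), and of -0.28 without Gli2CA replicate 2 or with the length trend described next removed. Wwtr1 (ENSMUSG00000027803, chromosome 3, 57455649 to 57575910, minus strand), which encodes TAZ, stood at 36.7, 25.3 and 43.6 FPKM in the tumors labelled Gli2CA and at 29.3, 31.1 and 23.4 FPKM in NTC tumors. Gli2CA replicate 2 lay among the NTC tumors, while the other two lay above them. Wwtr1 had one of 0.30 (SE 0.26, adjusted p = 0.462 in limma). It was 0.70 once the trend of fold change with gene length was taken out (adjusted p = 0.1), 0.52 without Gli2CA replicate 2 and 0.13 without Gli2CA replicate 3.

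Set against each other within a tumor, the ratio of Wwtr1 to Yap1 did not overlap between the groups. It was 0.736, 0.738 and 0.941 in the tumors labelled Gli2CA and 0.499, 0.453 and 0.471 in NTC tumors, or 0.805 ± 0.118 and 0.474 ± 0.0230 (SD, n = 3 each). All 3 tumors labelled Gli2CA were above all 3 NTC tumors, with a log2 difference of 0.75 and an exact two-sided permutation p of 0.1, the smallest that 3 against 3 can give. The ratio was picked after its values were seen, as 1 of 45 pairs among the 10 genes, and 11 of the 45 pairs had ratios that did not overlap. It is also not particular to Wwtr1: of 15819 other tested genes, 31.9% had a ratio to Yap1 that was higher in all tumors labelled Gli2CA, 4.68% one that was lower in all of them, and 36.5% one that did not overlap in either direction. In the 17 alternatives the log2 difference was 0.63 to 0.98, and the groups did not overlap in any of them. Most of these settings could not have made the groups overlap, so that count adds little. The filters, sample weights, variance trend and replicate block leave the ratios unchanged. Rescaling a tumor by a common factor nearly cancels in its ratio, and leaving out a tumor cannot bring overlap.

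**Figure D2:**
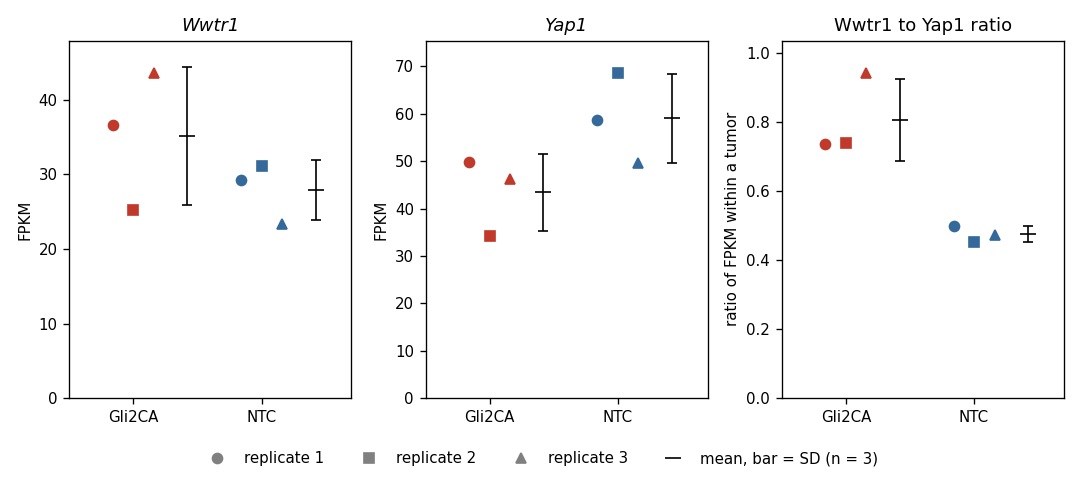
FPKM of Wwtr1 (left) and Yap1 (middle) and the ratio of Wwtr1 to Yap1 within each tumor (right), with the mean and SD of 3 tumors in black. The ratio is 0.736 to 0.941 in the tumors labelled Gli2CA and 0.453 to 0.499 in NTC tumors, although each gene overlaps between the groups.

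Which coactivator was the more abundant could not be read from FPKM alone. The length behind FPKM is the mean over a gene's annotated transcripts, 2052 bases for Yap1 with 10 transcripts and 4615 bases for Wwtr1 with 2. On the FPKM scale Yap1 was above Wwtr1 in all 6 tumors. Per kilobase of the longest annotated transcript, the level of Wwtr1 was 34.5 ± 9.09 in the tumors labelled Gli2CA and 27.5 ± 3.94 in NTC tumors, and that of Yap1 16.9 ± 3.18 and 22.9 ± 3.67 in the same order (SD, n = 3 each), so the order turned round. The change of the ratio between groups does not depend on this choice, since the same lengths apply to every tumor.

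The 3 TEAD genes all had negative estimates, and none passed. Tead1 (ENSMUSG00000055320, chromosome 7, 112679318 to 112906807, plus strand) stood at 35.1, 18.0 and 19.0 FPKM in the tumors labelled Gli2CA and at 51.5, 46.0 and 26.1 FPKM in NTC tumors. Gli2CA replicate 1 lay above NTC replicate 3, so the groups overlapped. Tead1 had a log2 estimate of -0.77 (SE 0.34, adjusted p = 0.182 in limma), and of -1.08 without Gli2CA replicate 1.

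Tead2 (ENSMUSG00000030796, chromosome 7, 45215753 to 45233644, plus strand) stood at 54.8, 91.0 and 47.9 FPKM in the tumors labelled Gli2CA and at 61.4, 131 and 70.3 FPKM in NTC tumors. Replicate 2 was the highest tumor of each group. The difference was -0.41 on the log2 scale (SE 0.35, adjusted p = 0.46 in limma) and -0.08 without NTC replicate 2. The leukocyte gene Cd37 overlaps Tead2 on the other strand and reached 25.1 FPKM, and since the strand setting is not given, reads of the 2 genes may not be told apart.

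Tead3 (ENSMUSG00000002249, chromosome 17, 28331671 to 28350817, minus strand) was the lowest of the 3, at 6.84, 4.40 and 3.96 FPKM in the tumors labelled Gli2CA and 10.4, 9.72 and 6.15 FPKM in NTC tumors. Gli2CA replicate 1 lay just above NTC replicate 3. For Tead3 the log2 difference was -0.74 (SE 0.30, unadjusted p = 0.0345, adjusted p = 0.153 in limma). In order of FPKM the means were Tead2, Tead1, Tead4 and Tead3 in both groups, and the order stayed with the longest transcript as length. Tead3 and Tead4 lay within their spread of each other in NTC tumors, at 8.77 ± 2.29 and 9.78 ± 2.51 FPKM (SD, n = 3 each). Per kilobase of the longest transcript they were level there, at 4.81 ± 1.26 and 4.83 ± 1.24. On that scale Tead1 and Tead4 were also within their spread in the tumors labelled Gli2CA, at 6.01 ± 2.41 and 5.56 ± 2.70. These parts of the order are therefore not settled.

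Among the targets, Ccn1, a secreted matricellular protein that signals through integrins, was higher in every tumor labelled Gli2CA than in any NTC tumor, but did not pass. Ccn1 (ENSMUSG00000028195, chromosome 3, 145646976 to 145649981, minus strand) stood at 84.4, 72.2 and 73.8 FPKM in the tumors labelled Gli2CA and at 66.2, 27.3 and 55.9 FPKM in NTC tumors. The groups did not overlap, and the NTC tumors varied more, with a coefficient of variation of 8.64% in the tumors labelled Gli2CA and 40.4% in NTC tumors. The difference was 0.71 on the log2 scale (SE 0.32, adjusted p = 0.192 in limma), and 0.33 without NTC replicate 2.

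Ccn2, or connective tissue growth factor, had the highest mean FPKM of the 10 in both groups. Ccn2 (ENSMUSG00000019997, chromosome 10, 24595442 to 24598683, plus strand) stood at 155, 296 and 130.0 FPKM in the tumors labelled Gli2CA and at 155, 74.2 and 155 FPKM in NTC tumors. Of the 6 tumors 4 lay at 130.0 to 155 FPKM, and the spread came from the other two: Gli2CA replicate 2 was high and NTC replicate 2 low. The log2 fold change of 0.58 (SE 0.39, adjusted p = 0.355 in limma) was 0.22 without Gli2CA replicate 2 and 0.22 without NTC replicate 2. NTC replicate 2 was also the lowest tumor for Ccn1 and, among the remaining CCN genes, for Ccn3 at 9.20 FPKM and Ccn5 at 8.34 FPKM.

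The other CCN genes gave 0 calls among 3 tested (0 at an unadjusted p under 0.05). Of all tested genes 0.348% were called and 27.5% had an unadjusted p under 0.05 in limma. Ccn3 stood at 44.4, 32.3 and 44.0 FPKM in the tumors labelled Gli2CA and at 22.3, 9.20 and 57.6 FPKM in NTC tumors, and NTC replicate 3 was above all others. Ccn5 averaged 35.7 ± 5.79 FPKM in the tumors labelled Gli2CA and 35.7 ± 23.8 FPKM in NTC tumors, and Ccn4 24.5 ± 7.49 and 28.4 ± 10.4 FPKM in the same order (SD, n = 3 each). Ccn6 lay under the expression filter of a mean of 0.5 FPKM.

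Ankrd1, a nuclear and sarcomeric ankyrin repeat protein known from heart and skeletal muscle, was low in all tumors. Ankrd1 (ENSMUSG00000024803, chromosome 19, 36111961 to 36120099, minus strand) stood at 4.73, 0.838 and 1.85 FPKM in the tumors labelled Gli2CA and at 1.53, 1.55 and 3.07 FPKM in NTC tumors. These values rest on 173, 25 and 70 fragments in the tumors labelled Gli2CA and 63, 61 and 101 in NTC tumors. Ankrd1 had a log2 estimate of 0.05 (SE 0.49, adjusted p = 0.959 in limma) and changed sign in 3 of the 17 alternatives. The 2 highest tumors for Ankrd1 were those with the most striated muscle RNA: the summed FPKM of 6 muscle markers was 568, 4.97 and 176 in Gli2CA replicates 1 to 3 and 0.870, 0.876 and 903 in NTC replicates 1 to 3. All 6 muscle markers were tested and 0 were called, where 0.348% of all tested genes were. Their part in the Ankrd1 values was not tested.

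The feedback genes Lats2 and Amotl2 had negative estimates. Lats2 (ENSMUSG00000021959, chromosome 14, 57689662 to 57758388, minus strand), a kinase that phosphorylates YAP and TAZ, stood at 30.6, 22.1 and 28.4 FPKM in the tumors labelled Gli2CA and at 34.8, 37.7 and 32.6 FPKM in NTC tumors. Every tumor labelled Gli2CA was below every NTC tumor, by a small margin. Lats2 had a log2 estimate of -0.38 (SE 0.21, adjusted p = 0.275 in limma), and it ran from -0.47 to -0.24 over the 17 alternatives. Amotl2 (ENSMUSG00000032531, chromosome 9, 102716672 to 102733418, plus strand), an angiomotin that holds YAP at cell junctions, stood at 23.6, 12.7 and 17.8 FPKM in the tumors labelled Gli2CA and at 32.3, 16.2 and 15.7 FPKM in NTC tumors. Only NTC replicate 1 stood clear of the others. Amotl2 had a log2 estimate of -0.20 (SE 0.34, adjusted p = 0.723 in limma) and changed sign in 3 alternatives.

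**Figure D3:**
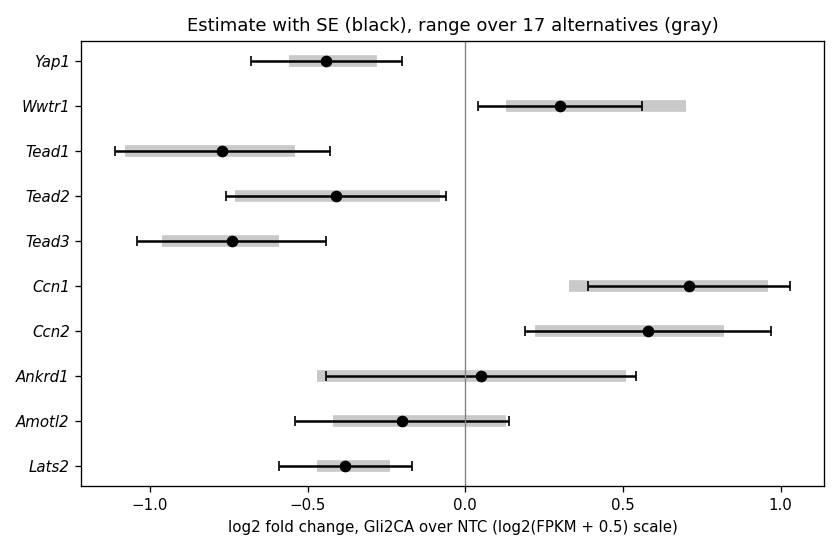
Log2 fold change of each gene, tumors labelled Gli2CA over NTC tumors, on the log2(FPKM + 0.5) scale, with the SE of limma as black bars and the range over 17 alternatives as gray bars. Yap1, the TEAD genes and Lats2 keep negative estimates and Wwtr1, Ccn1 and Ccn2 positive ones throughout, while Ankrd1 and Amotl2 cross 0.

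Within the groups, single tumors set many of the extremes. Gli2CA replicate 2 was the lowest of the 6 tumors for 5 genes, Yap1, Tead1, Ankrd1, Amotl2 and Lats2, and the highest for Ccn2. NTC replicate 2 was the highest for Yap1, Tead2 and Lats2 and the lowest for Ccn1 and Ccn2. NTC replicate 1 was the highest for Tead1, Tead3 and Amotl2. Thus low Yap1 and low Ccn2 did not fall in the same tumors.

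Over 9812 other genes with a mean of at least 5 FPKM, the genes whose pattern over the 6 tumors was most like that of Yap1 were Eftud2, a spliceosomal GTPase, Zmym4 and Tlnrd1, at root mean square distances of 0.048, 0.051 and 0.055 on the centred log2 scale, where Yap1 itself varied by 0.306. For Ccn2 they were Pf4, a platelet chemokine, Cthrc1, a secreted matrix protein, and Ubd, a ubiquitin-like protein, at 0.272, 0.284 and 0.285, where Ccn2 varied by 0.581. The nearest genes thus followed Ccn2 much less closely than Yap1. These distances are descriptions over 6 libraries.

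Upstream of YAP and TAZ, 15 of 18 genes of the kinase cassette and its regulators had negative estimates, and 0 passed. Of all tested genes 52.6% had negative estimates and 0.348% passed in limma. Before adjustment 8 of the 18 were lower and 0 higher at p under 0.05 in limma, where 14.7% of all tested genes were lower. For 8 of the 18 the groups did not overlap, all lower, where 17.9% of all tested genes were lower in that way. The median log2 fold change was -0.54 against -0.04 over all tested genes, and it was -0.25 with the gene length trend taken out and -0.33 without NTC replicate 2.

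Wwc1, which encodes the LATS-activating scaffold KIBRA, stood at 21.5, 27.0 and 15.3 FPKM in the tumors labelled Gli2CA and at 47.5, 81.8 and 37.6 FPKM in NTC tumors. The groups did not overlap (log2 fold change -1.33, SE 0.33, adjusted p = 0.0741 in limma). Fat1, an atypical cadherin, stood at 7.56, 6.24 and 4.96 FPKM in the tumors labelled Gli2CA and at 22.6, 13.5 and 11.3 FPKM in NTC tumors, again with no overlap (-1.23, SE 0.30, adjusted p = 0.0733). Taok3, a kinase that acts on MST, averaged 9.42 ± 3.35 FPKM in the tumors labelled Gli2CA and 19.2 ± 3.90 FPKM in NTC tumors (SD, n = 3 each; adjusted p = 0.0874 in limma). These 3 genes passed in 2 of 17 alternatives, sample weights (0.0238, 0.0305 and 0.0494) and a replicate block (0.0241, 0.0268 and 0.0312). Those 2 settings called 10% and 12.2% of all genes. With the gene length trend taken out, Wwc1, Fat1 and Taok3 had log2 estimates of -1.20, -0.74 and -0.77, against -1.33, -1.23 and -1.02 in the main fit. The core kinase genes had negative estimates, with Stk4 at -0.78 (SE 0.32) and Stk3 and Lats1 at -0.22 (SE 0.30) and -0.16 (SE 0.25) on the log2 scale, while the adaptor genes Sav1, Mob1a and Mob1b stood at 0.19, 0.04 and 0.28.

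Of the TEAD cofactors, Vgll4, which competes with YAP for TEAD, stood at 27.7, 17.6 and 25.0 FPKM in the tumors labelled Gli2CA and at 45.8, 44.2 and 32.0 FPKM in NTC tumors. The groups did not overlap (log2 fold change -0.79, SE 0.25, adjusted p = 0.104 in limma). The cofactor gene Vgll3 averaged 17.0 ± 4.99 FPKM in the tumors labelled Gli2CA and 16.8 ± 6.83 FPKM in NTC tumors (SD, n = 3 each). Tead4 averaged 11.3 ± 5.46 FPKM in the tumors labelled Gli2CA and 9.78 ± 2.51 FPKM in NTC tumors. Vgll1 and Vgll2 lay under the filter, and 0 of the 3 tested genes of this list passed (0.348% of all tested genes did), with 1 lower at an unadjusted p under 0.05, where 14.7% of all tested genes were lower.

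**Figure D4:**
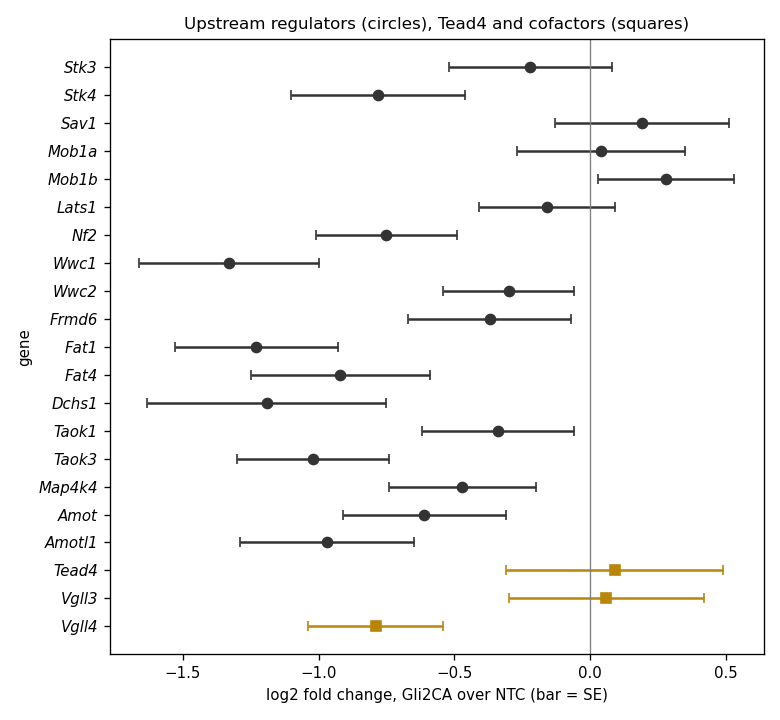
Log2 fold change of the tested upstream regulators (circles) and of Tead4 and the vestigial-like cofactors (squares), tumors labelled Gli2CA over NTC tumors, with the SE of limma. Wwc1 at -1.33 and Fat1 at -1.23 have the lowest estimates, and 15 of the 18 upstream genes lie below 0, as do 52.6% of all tested genes.

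A wider set of targets was read from the remaining 17 genes of a published 22-gene YAP and TAZ signature of human cancers, of which the other 5 are Ccn1, Ccn2, Ankrd1, Amotl2 and Lats2. Foxf2 lay under the filter. Of the 16 tested genes 0 passed over all genes in limma or limma-voom, where 0.348% and 0.67% of all tested genes did. At an unadjusted p under 0.05 in limma 9 of the 16 were lower and 0 higher (14.7% of all tested genes were lower). Negative estimates were found for 13 of the 16 (52.6% of all tested genes). The groups did not overlap for 7, all lower, where 17.9% of all tested genes were lower without overlap. The median log2 fold change was -0.68 over these genes and -0.04 over all tested genes. With the gene length trend taken out it was -0.51, and without Gli2CA replicate 2 it was -0.56. In each of these settings 11 of the 16 estimates were negative.

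Tgfb2, a transforming growth factor beta ligand, stood at 9.67, 11.4 and 10.9 FPKM in the tumors labelled Gli2CA and at 31.0, 37.1 and 19.0 FPKM in NTC tumors. The groups did not overlap (log2 fold change -1.35, SE 0.27, adjusted p = 0.0636 in limma). Crim1, a transmembrane regulator of BMP ligands, stood at 8.84, 15.4 and 8.23 FPKM in the tumors labelled Gli2CA and at 28.9, 53.7 and 24.4 FPKM in NTC tumors, with the lowest estimate of the list (-1.64, SE 0.35, adjusted p = 0.0658). Arhgef17, a guanine nucleotide exchange factor, averaged 3.60 ± 0.723 FPKM in the tumors labelled Gli2CA and 9.83 ± 2.46 FPKM in NTC tumors (SD, n = 3 each; adjusted p = 0.0644 in limma). These 3 passed under the sample weights (0.0224, 0.0162 and 0.0222) and under the replicate block (0.0273, 0.0198 and 0.0248). Igfbp3, Gadd45a and Nt5e had positive estimates, at 0.63 (SE 0.31), 0.40 (SE 0.26) and 0.43 (SE 0.29), and Axl one of -0.02 (SE 0.41).

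The signature median and the estimates of Ccn1 and Ccn2 had opposite signs, with Ccn1 at 0.71 and Ccn2 at 0.58 beside a median of -0.68. None of these genes passed, and without NTC replicate 2 Ccn1 and Ccn2 were at 0.33 and 0.22. Of the other members in the same signature, Lats2 and Amotl2 were negative, at -0.38 and -0.20, and Ankrd1 was at 0.05. Relative to the NTC mean, the median of the 16 genes was -0.42, -1.04 and -0.70 in Gli2CA replicates 1 to 3 and 0.18, 0.23 and -0.42 in NTC replicates 1 to 3, so Gli2CA replicate 1 and NTC replicate 3 were level.

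**Figure D5:**
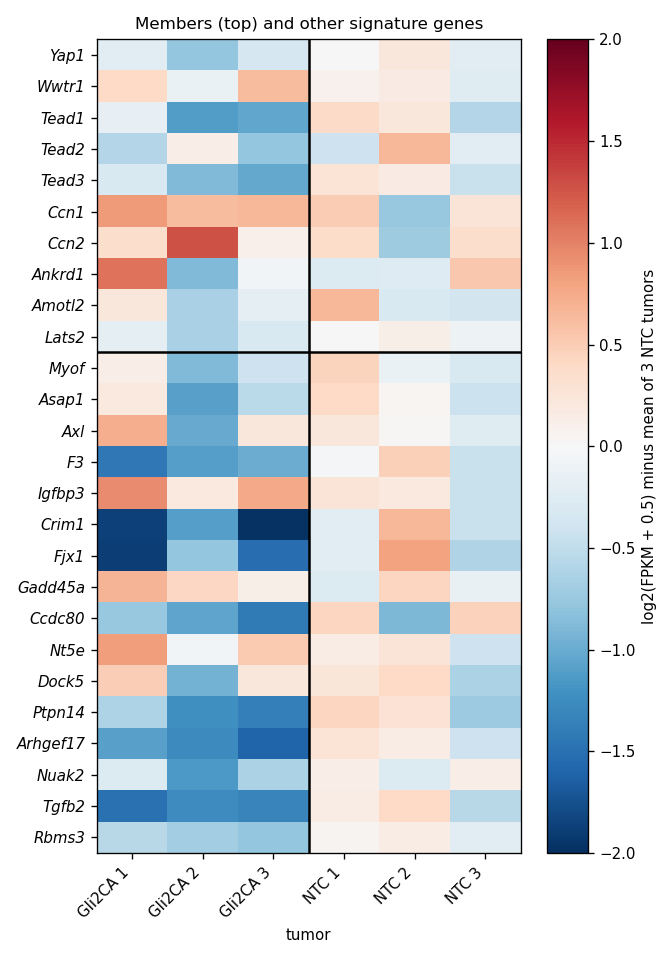
Log2(FPKM + 0.5) of the 10 genes (above the line) and the 16 other tested signature genes (below it) in each tumor, minus the mean of the 3 NTC tumors (red higher, blue lower). Crim1, Tgfb2, Arhgef17, F3 and Fjx1 are blue in all 3 tumors labelled Gli2CA, while Ccn1 is red in all 3 at 0.63 to 0.85.

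Markers of stromal cells had lower sums in the tumors labelled Gli2CA. The summed FPKM of 7 fibroblast markers was 3025 to 4769.6 in the tumors labelled Gli2CA and 6965 to 22794 in NTC tumors, with all 7 estimates negative and 0 called. Col1a1 and Col1a2 made up most of that sum, and 22794 was NTC replicate 1 alone. The other 5 fibroblast markers summed to 808, 1496 and 1042 FPKM in Gli2CA replicates 1 to 3 and 1521, 1618 and 1503 FPKM in NTC replicates 1 to 3. The sum of 6 endothelial markers was 74.5 to 83.0 and 119 to 178, and the sum of 6 leukocyte markers 266 to 365 and 386 to 499, in the same order, with 0 called in either list. Of all tested genes 0.348% were called. All 6 endothelial estimates were negative, although Emcn was at -0.04, and of the leukocyte estimates 5 were negative and 1 positive. The positive one was Ptprc, a marker of all leukocytes, at 0.09, with 78.5, 88.7 and 88.2 FPKM in the tumors labelled Gli2CA and 70.4, 71.5 and 101 FPKM in NTC tumors, and Itgam was at -0.07. No marker of these 3 lists was at 0 in all tumors. Col1a1, a fibrillar collagen chain, had a log2 estimate of -1.90 (SE 0.57, adjusted p = 0.094 in limma), or -1.25 without NTC replicate 1, Cdh5, the vascular cadherin, -1.15 (SE 0.28, adjusted p = 0.0736) and Csf1r, the macrophage growth factor receptor, -1.43 (SE 0.29, adjusted p = 0.0642). Cdh5 and Csf1r passed in 2 of the 17 alternatives and Col1a1 in 1. The part of these markers in the lower estimates of the TEAD, upstream and signature genes was not tested.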

How the data were processed

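RNA of 6 whole tumors was sequenced after poly-A selection and random hexamer priming, per the labels' protocols. The authors deposited FPKM (fragments per kilobase of transcript scaled to library size) for each gene and tumor. For the aligner, counter, build and use of strand, the sources used here give no entry. Ensembl identifiers were joined to GENCODE M21 (GRCm38), which named 54495 of 54532 genes. Each FPKM times the mean transcript length was a whole multiple of 1 step per tumor, within 0.1 fragment, for 96.6% to 99.6% of low values, which gave the fragments behind each value. Limma 3.58.1 in R 4.3.3 (lmFit, eBayes with a variance trend) was run two-sided on log2(FPKM + 0.5) for 15820 genes, those averaging 0.5 FPKM or more, with Benjamini-Hochberg adjustment over all of them. Fold changes on this scale understate the change of low genes. Unless another is named, this fit gave each adjusted p. The fit was also run on simulated data with a fixed spread and changes larger than the estimates of the Hippo genes here. That run does not show how well changes of their size are found.

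The 10 genes and the other lists (upstream regulators, TEAD partners, signature, CCN family, SRF targets, and melanocyte, fibroblast, endothelial, leukocyte, muscle, keratinocyte and adipocyte markers) were chosen with earlier results of these data known. All 10 genes, Gli2, the 3 tested genes of each other list with the smallest p and 3 genes each of like pattern to Yap1 and Ccn2 are named by rule, and further genes of the lists were picked after their values were seen. The labels do not state whether each tumor had its own mouse, and p-values rest on spread among samples that may be technical. Every pair of libraries differed beyond sampling noise (mean chi-square per gene of at least 49.4). The alternatives changed 1 choice at a time: a pseudocount of 1 or 0.1, a minimum mean of 1 FPKM or no minimum, median-ratio or quantile scaling, sample weights, no variance trend, a replicate block, removal of the gene length trend, limma-voom and each sample left out. Tables were made with Python 3.11.15, numpy 2.4.6, pandas 2.3.3, scipy 1.17.1 and matplotlib 3.10.9.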

Additional observations from a re-analysis of the deposited data

How the results depend on the processing

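Of the 10 genes 0 passed in any of the 17 alternatives, and Yap1, Wwtr1, Tead1, Tead2, Tead3, Ccn1, Ccn2 and Lats2 kept their direction in all of them. Their lowest adjusted p in any alternative was 0.0705, for Tead3 with a replicate block. The number of genes called over the table, 55, was 145 with a minimum mean of 1 FPKM, 3 with no minimum, 36 with quantile normalization, 1588 with sample weights, 1928 with a replicate block, 106 with limma-voom and 4 to 119 with 1 tumor left out (lowest without NTC replicate 2, highest without Gli2CA replicate 2). The cause was not tested.

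With the replicate block, 6 signature and 4 upstream genes were called lower, and with sample weights 6 and 3, where 6.49% and 5.59% of all genes were called lower. Same-numbered tumors deviated together only in part (correlations of 0.35, 0.22 and 0.02, and 4 of 6 tumors correlated best with their own number), and nothing in the labels ties the numbers.

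Directions turned in these cases, all with values that did not pass. With sample weights Amotl2 stood at 0.01, Ccn4 at 0.11, Cidec at 0.78 and Plin1 at 0.62. With 1 tumor left out, the log2 fold change ran from -0.47 to 0.51 for Ankrd1, -0.42 to 0.13 for Amotl2, -0.20 to 0.55 for Tead4, -0.31 to 0.31 for Vgll3, -0.38 to 0.08 for Ccn4, -0.48 to 0.79 for Ccn5, -0.43 to 0.10 for Pmel, -1.74 to 0.43 for Cidec and -1.47 to 0.76 for Plin1. At a depth of 25 to 173 fragments Ankrd1 was the least precisely measured of the 10, and intervals from fragments cover counting error only.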

Other observations

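Genes of the actin cytoskeleton that the transcription factor SRF and its MRTF coactivators switch on, a set that shares regulation by cell tension with the CCN genes, gave 0 calls among 9 tested in limma, with 0 at an unadjusted p under 0.05. Of all tested genes 0.348% were called and 27.5% had an unadjusted p under 0.05. The median log2 fold change of the 9 was -0.28, against -0.04 over all tested genes, and 7 of 9 estimates were negative, as were 52.6% of all. Myl9, a myosin light chain, stood at 61.7, 62.1 and 65.9 FPKM in the tumors labelled Gli2CA and at 94.9, 88.1 and 67.6 FPKM in NTC tumors, without overlap (log2 fold change -0.39, SE 0.21, adjusted p = 0.27). Vcl, which encodes vinculin, stood at 24.7, 5.39 and 18.8 FPKM in the tumors labelled Gli2CA and at 39.5, 27.7 and 15.5 FPKM in NTC tumors. Gli2CA replicate 2 was the lowest tumor there, as it was for Yap1 and Tead1. Srf itself averaged 28.3 ± 13.6 FPKM in the tumors labelled Gli2CA and 39.0 ± 8.74 FPKM in NTC tumors (SD, n = 3 each).

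Among the remaining markers, Mitf averaged 6.24 ± 0.218 FPKM in the tumors labelled Gli2CA and 9.60 ± 1.15 FPKM in NTC tumors (SD, n = 3 each; adjusted p = 0.135), without overlap, and 0 of 3 tested melanocyte markers passed. The keratinocyte keratin gene Krt14 stood at 16.9, 2.05 and 29.7 FPKM in the tumors labelled Gli2CA and at 0.0318, 0.369 and 0.0800 FPKM in NTC tumors (adjusted p = 0.0565). Its values in NTC replicates 1 to 3 rest on 1, 11 and 2 fragments. In limma 0 of 2 tested keratinocyte markers passed, though Krt14 passed in 5 of the 17 alternatives. The other tested marker, Krt10, had a log2 estimate of 0.99. Krt5, Krt1, Trp63 and Dsp lay under the filter, at 0.158 FPKM or less in every tumor. The summed FPKM of 4 adipocyte markers overlapped, at 34.8 to 135 in the tumors labelled Gli2CA and 11.3 to 104 in NTC tumors, with 0 of 4 called. Of all tested genes 0.348% were called.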
